A study of Mus musculus with 20 samples.

Results

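The genes described here encode the machinery that takes up, activates and oxidizes fatty acids, together with the nuclear receptor PPAR-alpha and genes known as its targets. They are a list of 39 members named by symbol and matched to the count tables regardless of letter case. The rule itself holds no measured value, but the list was drawn up with earlier results of these data known, so its counts are a description. All 39 were among the 15780 listed genes, and all 39 passed the filter on low counts that left 13990 genes for testing. In EIC mouse 65 none of the 15780 listed genes was at 0, while 234 to 654 were in each of the other 19 libraries, so the listed genes may be only those detected in that mouse. The kidneys came from 20 female NCr nude mice, a strain without a thymus, bought at 7 weeks of age, with 5 mice in each of 4 groups and 1 library per mouse. EIC mice received 6 tail-vein injections of engineered immune complexes, each of 0.2 mg human galactose-deficient IgA1 and 0.1 mg of a recombinant IgG autoantibody against it, and vehicle by gavage. EIC + S60 and EIC + S120 mice received the same injections and daily gavage of sparsentan, which blocks the ETA receptor of endothelin-1 and the AT1 receptor of angiotensin II, at 60 or 120 mg/kg. Control mice received PBS in place of the complexes, with vehicle by gavage. Gavage ran for 11 days in all 4 groups, and kidneys were taken on day 12 at an hour that the sources used here do not give. The complexes hold human antibodies injected into a mouse, and the mice lack a thymus, which limits what the groups model.

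Fatty acids enter cells through carriers such as CD36 and the FATP family, and are activated to acyl-CoA on entry or by acyl-CoA synthetases. Long-chain acyl groups cross into mitochondria by the carnitine shuttle, in which CPT1 makes acylcarnitine, the carrier SLC25A20 moves it inward in exchange for carnitine, and CPT2 turns it back into acyl-CoA. Acyl-CoA dehydrogenases, hydratases, hydroxyacyl-CoA dehydrogenases and thiolases then shorten the chain stepwise, and electron transfer flavoprotein passes the electrons of the first step to the respiratory chain. Peroxisomes run a parallel pathway for very long and branched chains. PPAR-alpha, bound by fatty acids, binds DNA with RXR and induces many of these genes, and the proximal tubule of the kidney is known for relying on fatty acids as fuel.

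The 20 libraries held 12662345 to 38651781 counts, with Control 651 and Control 652 the deepest. Levels are given in CPM, counts scaled to library size after TMM normalization. Differences between groups are log2 fold changes (LFC, first group over second) from edgeR's quasi-likelihood test over all 20 libraries. Its p-values were adjusted over the 13990 genes tested. The SE printed after an LFC (± SE) came from a separate limma fit to log2 CPM. The smallest count of any member in any library was 52, for Fabp1. Control 653 stood apart: 9 adipocyte markers summed to 461 CPM in it, against 27.9 to 90.0 CPM in the other 19 libraries, and the brown fat uncoupler Ucp1 was at 93.1 CPM, against at most 1.59 CPM elsewhere. The 14 proximal tubule markers, which check the tissue, summed to 16616 to 21831 CPM in EIC, 16944 to 21556 CPM in EIC + S60, 16650.1 to 22079 CPM in EIC + S120 and 13623 to 20438 CPM in Control mice, with Control 653 the lowest. In whole kidney, fewer cells of a type and less RNA per cell cannot be told apart.

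Per kilobase of exon, the members spanned a wide range of levels (mean RPKM over the 20 libraries). Slc27a2, a fatty acid carrier and very-long-chain acyl-CoA synthetase of the proximal tubule, was the highest at 846 RPKM, followed by catalase (Cat, 455 RPKM), the mitochondrial thiolase Acaa2 (300.3 RPKM) and the medium-chain dehydrogenase Acadm (287 RPKM). At the low end stood the lipid droplet protein Plin5 (3.05 RPKM), the liver-type fatty acid binding protein Fabp1 (8.51 RPKM), the pyruvate dehydrogenase kinase Pdk4 (10.5 RPKM) and Plin2 (12.1 RPKM). Within the carnitine shuttle, Slc25a20 was the lowest at 17.2 RPKM, below Crat (39.3 RPKM), Cpt2 (65.5 RPKM) and Cpt1a (73.1 RPKM). Some members share sequence with other genes, so that their counts are uncertain. Of the 100-base windows in the transcripts of Acot1 and Acot2, 12.4% and 17.1% also occur in other genes, in each other and, for Acot1, also in Acot3 and Acot5. The share was 35.8% for Etfb, with the overlapping model Gm45233, 21.7% for Fabp3, with Fabp3-ps1, 14.8% for Hadhb, with Gm13910 and Gm9108, 7.21% for Acaa1a, with Acaa1b, and at most 2.36% for each of the other 33 members.

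In EIC vs. Control, 6 of the 39 members were higher and none lower. Those 6 were Slc27a2, the shuttle genes Cpt1a, Slc25a20 and Cpt2, the electron transfer subunit Etfb and the enoyl-CoA isomerase Eci2. That is 15.4% of the members, where 2.97% of all genes tested were called in either direction, 1.61% higher and 1.37% lower. In EIC + S60 vs. Control, 3 members were higher and none lower (Cpt1a, Slc25a20 and Eci2), where 1.29% of all genes were called, 0.808% higher and 0.479% lower. In EIC + S120 vs. Control, 12 members were higher and none lower, or 30.8%, where 5.55% of all genes were called, 2.89% higher and 2.67% lower. The 12 were the 6 above together with Crat, the dienoyl-CoA reductase Decr1, the thioesterases Acot1, Acot2 and Acot12, and Pdk4. The members higher without overlap of the groups numbered 5, 7 and 10 in EIC, EIC + S60 and EIC + S120 vs. Control, where 1.98%, 2.08% and 2.79% of all genes were. All 3 comparisons share the 5 Control libraries. The median LFC of the members was 0.19, 0.14 and 0.23 in EIC, EIC + S60 and EIC + S120 vs. Control, and 33, 33 and 35 of the 39 LFCs were above 0. Over all genes tested the median LFC was -0.01 in each of these comparisons, and 47.6%, 47.3% and 46.8% of genes had an LFC above 0.

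**Figure D1:**
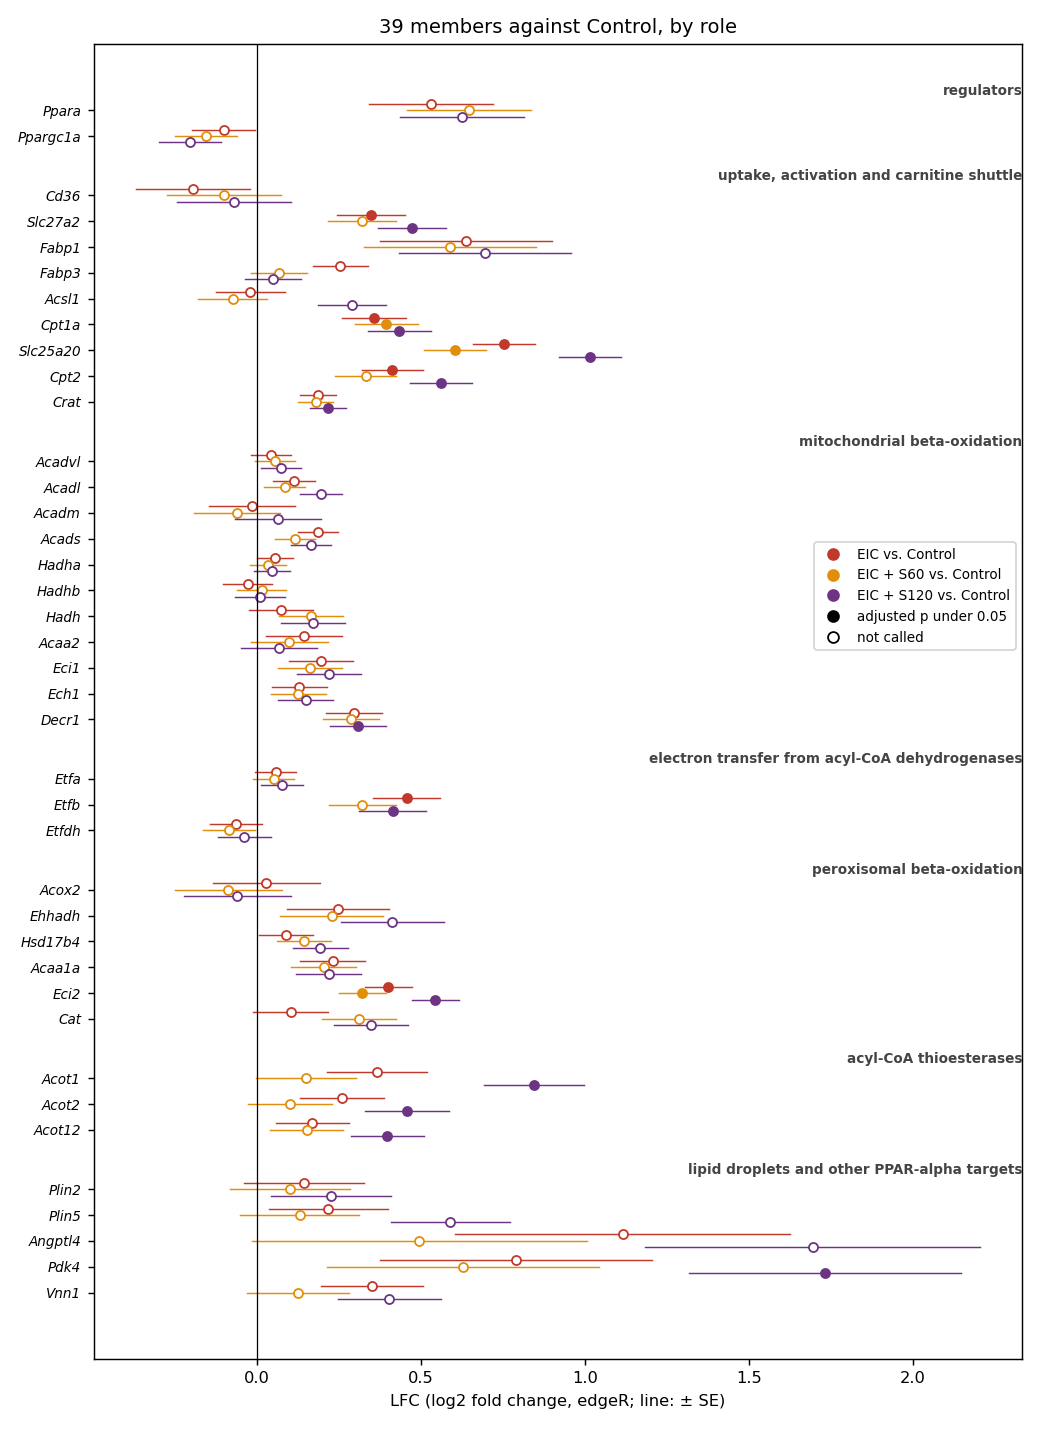
LFC (x axis, log2 scale) of the 39 members in EIC, EIC + S60 and EIC + S120 vs. Control, grouped by role down the page. Lines are ± SE from limma-trend, filled points passed the test (6, 3 and 12 members) and open points did not. Slc25a20 and the other shuttle genes lie to the right of 0 in all 3 comparisons, while the 11 mitochondrial spiral enzymes lie between -0.06 and 0.31.

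Uptake, activation and the carnitine shuttle held the most called members: 4 of 9 in EIC vs. Control, 2 of 9 in EIC + S60 vs. Control and 5 of 9 in EIC + S120 vs. Control. The carnitine-acylcarnitine carrier Slc25a20 (chr9:108662088-108684641, plus strand of GRCm38) had the smallest adjusted p of the 39 in each comparison with Control. It had 95.6, 100.02, 73.8, 91.7 and 90.6 CPM in EIC mice, 83, 88, 82.4, 88.3 and 66.7 CPM in EIC + S60 mice, 94.3, 105, 103, 125 and 115 CPM in EIC + S120 mice and 57.7, 52.9, 56.7, 45.2 and 55.6 CPM in Control mice. Every mouse that received the complexes was above every Control mouse, and EIC + S120 mice were also all above every EIC + S60 mouse. Against Control the values were LFC 0.75 ± 0.09, adjusted p = 8.48e-05 in EIC, LFC 0.61 ± 0.09, adjusted p = 0.0012 in EIC + S60 mice and LFC 1.02 ± 0.09, adjusted p = 1.04e-06 in EIC + S120 mice. Its 3 calls remained whichever single library was left out, and the lowest EIC + S60 value, 66.7 CPM, was that of mouse 75.

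Cpt2 (chr4:107903981-107923610, minus strand), which reforms acyl-CoA inside mitochondria, had 178, 180.4, 138, 152 and 174 CPM in EIC mice, 152, 162, 148, 178 and 139 CPM in EIC + S60 mice, 156, 169.6, 181, 216 and 191 CPM in EIC + S120 mice and 136, 121.4, 114, 111 and 136 CPM in Control mice. All 15 mice given the complexes were above the highest Control mouse. Against Control the values were LFC 0.41 ± 0.09 (adjusted p = 0.0191) in EIC mice and LFC 0.56 ± 0.09, adjusted p = 0.000854 in EIC + S120. In EIC + S60 vs. Control the value was LFC 0.33 ± 0.09, adjusted p = 0.0878, which missed the threshold although the groups did not overlap. The EIC call was lost without Control 654 (adjusted p = 0.0572).

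Cpt1a (chr19:3322334-3385733, plus strand), the outer-membrane transferase that commits long chains to oxidation and a textbook target of PPAR-alpha, had 569, 729.5, 495, 536 and 564 CPM in EIC mice, 614, 558, 602, 632 and 565 CPM in EIC + S60 mice, 551, 601, 605, 658 and 640.2 CPM in EIC + S120 mice and 541, 418, 386, 423 and 491 CPM in Control mice. EIC + S60 and EIC + S120 mice were all above the highest Control mouse, while 3 of 5 EIC mice were. It passed the test in each comparison with Control, with LFC 0.36 ± 0.10, adjusted p = 0.0496 in EIC, LFC 0.39 ± 0.10, adjusted p = 0.0473 in EIC + S60 mice and LFC 0.44 ± 0.10, adjusted p = 0.0098 in EIC + S120. The first pair of calls lay just inside the threshold: that in EIC was lost in 14 of the 20 fits that left out 1 library (adjusted p 0.0176 to 0.117), and that in EIC + S60 in 15 of 20 (0.0121 to 0.126). Crat, a carnitine acetyltransferase, was narrowly spread. It lay at 202 to 236 CPM in EIC mice, 207 to 242 CPM in EIC + S60 mice, 215 to 239 CPM in EIC + S120 mice and 186 to 199 CPM in Control mice, so that no group given the complexes overlapped Control, yet it was called only in EIC + S120 vs. Control (LFC 0.22 ± 0.05, adjusted p = 0.0294), a call lost without Control 652, Control 653, Control 654 or EIC + S120 mouse 80.

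**Figure D2:**
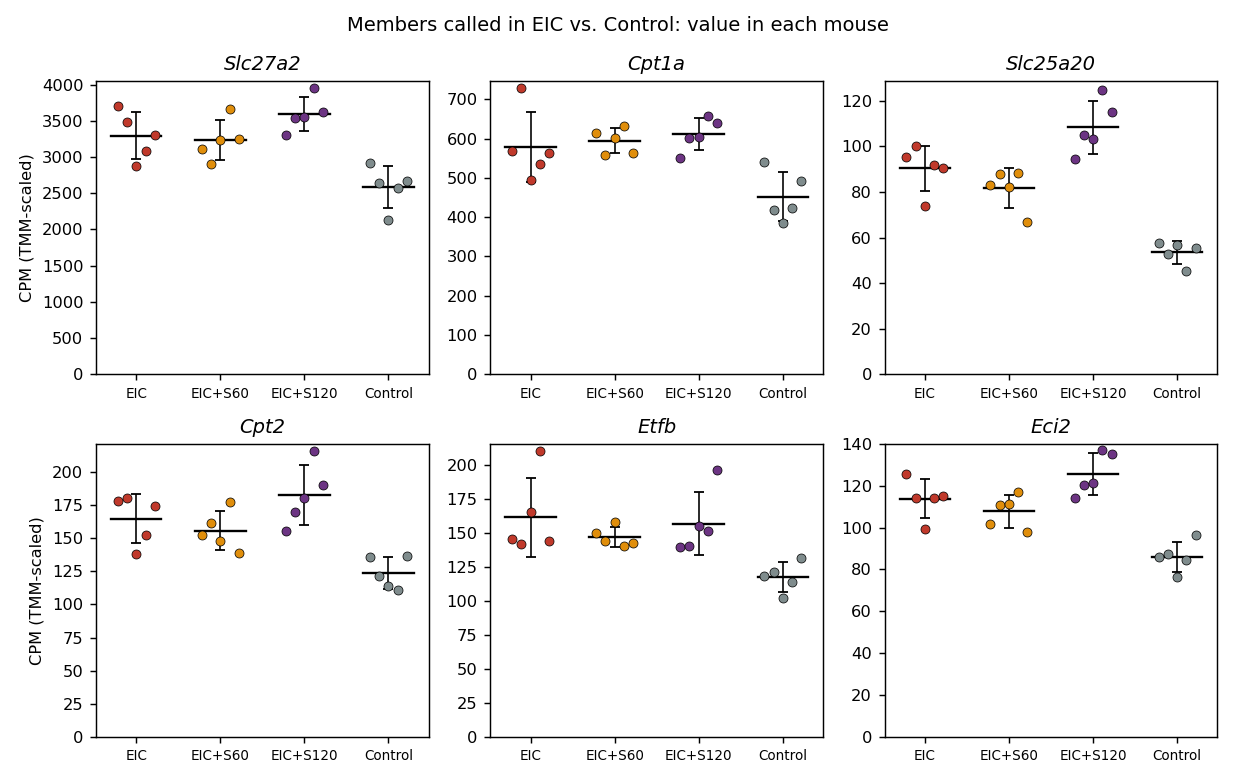
CPM of each mouse (points) for the 6 members called in EIC vs. Control, with the group mean and SD (n = 5) as bars and every axis from 0. For Slc25a20 the EIC, EIC + S60 and EIC + S120 mice lie at 66.7 to 125 CPM, all above the Control mice at 45.2 to 57.7 CPM.

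Slc27a2 (chr2:126552407-126588243, plus strand) had 3709.6, 3480.5, 2879, 3088 and 3311 CPM in EIC mice, 3117, 2909, 3238, 3668 and 3245 CPM in EIC + S60 mice, 3299.6, 3542, 3549.8, 3959 and 3621 CPM in EIC + S120 mice and 2923, 2637, 2135, 2577 and 2665 CPM in Control mice. In EIC + S120 all 5 mice were above every Control mouse, and in EIC and EIC + S60 4 of 5 were. The test gave LFC 0.35 ± 0.10, adjusted p = 0.0412 in EIC, LFC 0.32 ± 0.10, adjusted p = 0.0918 in EIC + S60 mice and LFC 0.47 ± 0.10, adjusted p = 0.00291 in EIC + S120 vs. Control. The EIC call was lost in 9 of the 20 fits without 1 library. The other 4 members of the group, Cd36, Fabp1, Fabp3 and the acyl-CoA synthetase Acsl1, were called in none of the 6 comparisons. Cd36, a fatty acid translocase, had LFCs of -0.19, -0.10 and -0.07 in EIC, EIC + S60 and EIC + S120 vs. Control. Fabp1 had LFCs of 0.64, 0.59 and 0.70 at SEs of 0.26, and Fabp3 of 0.26, 0.07 and 0.05 at SEs of 0.08, in the same order. Acsl1 stood at 431 ± 54.4 CPM in EIC, 416 ± 23.7 CPM in EIC + S60, 535 ± 85.5 CPM in EIC + S120 and 437 ± 48.6 CPM in Control mice (SD, n = 5 each), and 4 of 5 EIC + S120 mice were above every mouse of the other groups.

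The bases before the start of the 3 core shuttle genes are printed because all 3 were called in EIC and in EIC + S120 vs. Control, with Fabp1 beside them as a member that holds a fuller match. They are the 250 bases before each RefSeq start on GRCm38.p6, 5′ to 3′ on the gene's strand. The gene spans given above are GENCODE's, whose starts lie further upstream for the 3 shuttle genes and for Fabp1 (71199827). The Cpt1a window is wholly inside its GENCODE span, and the Slc25a20, Cpt2 and Fabp1 windows overlap the first bases of theirs. PPAR-alpha and RXR bind direct repeats of AGGTCA spaced by 1 base. Capitals mark AGGTCA on either strand in Cpt1a, Slc25a20 and Cpt2, and in Fabp1 the match to AGGNCANAGGNCA, which contains the half-site on the opposite strand.
Cpt1a (chr19:3323051-3323300, plus strand): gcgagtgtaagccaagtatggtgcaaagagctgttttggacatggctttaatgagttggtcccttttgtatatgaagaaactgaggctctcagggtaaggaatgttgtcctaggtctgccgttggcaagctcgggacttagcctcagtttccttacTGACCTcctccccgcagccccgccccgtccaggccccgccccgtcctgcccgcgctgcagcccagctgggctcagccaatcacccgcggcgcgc
Slc25a20 (chr9:108661886-108662135, plus strand): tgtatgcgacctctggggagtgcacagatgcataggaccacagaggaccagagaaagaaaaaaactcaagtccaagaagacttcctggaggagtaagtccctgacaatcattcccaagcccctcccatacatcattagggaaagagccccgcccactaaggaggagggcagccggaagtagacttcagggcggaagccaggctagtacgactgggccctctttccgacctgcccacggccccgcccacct
Cpt2 (chr4:107923590-107923839, minus strand): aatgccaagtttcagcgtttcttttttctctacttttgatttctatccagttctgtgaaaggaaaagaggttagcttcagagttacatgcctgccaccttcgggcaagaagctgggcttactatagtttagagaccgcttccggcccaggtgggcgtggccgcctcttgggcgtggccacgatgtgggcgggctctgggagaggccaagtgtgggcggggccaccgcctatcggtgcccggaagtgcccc
Fabp1 (chr6:71199629-71199878, plus strand): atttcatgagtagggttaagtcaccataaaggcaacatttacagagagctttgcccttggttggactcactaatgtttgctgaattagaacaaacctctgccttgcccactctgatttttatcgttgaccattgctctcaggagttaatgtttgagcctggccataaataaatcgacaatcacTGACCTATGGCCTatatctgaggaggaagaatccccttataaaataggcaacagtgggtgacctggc
The full repeat AGGTCANAGGTCA was found in 0.0335% of 32851 such windows over all genes and in none of the 36 windows of the 33 members that have one. The looser AGGNCANAGGNCA was in 0.338% of all windows and, among the members, in Fabp1 only, 67 bases before the RefSeq start. The half-site was in 14.0% of all windows and in 10 of the 36 member windows. These belong to 10 of the 33 members, Cpt1a among them, but the half-site was in neither Slc25a20 nor Cpt2. These are matches of letters in a short window.

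Among the 11 enzymes of the mitochondrial spiral, none was called in EIC or EIC + S60 vs. Control and 1, Decr1, was called in EIC + S120 vs. Control. The median LFC of the 11 was 0.11, 0.10 and 0.15 in EIC, EIC + S60 and EIC + S120 vs. Control. Decr1, which reduces the dienoyl-CoA intermediates of polyunsaturated chains, had 229, 223, 179, 219 and 209.9 CPM in EIC mice, 221, 219.5, 212, 206 and 195 CPM in EIC + S60 mice, 195, 199, 197, 227 and 252 CPM in EIC + S120 mice and 178, 169, 146, 170.3 and 200.2 CPM in Control mice. The lowest EIC + S120 value was 195 CPM, and Control 655 lay above 3 of the 5 EIC + S120 mice. The values were close in each comparison, LFC 0.30 ± 0.09, adjusted p = 0.064 in EIC, LFC 0.29 ± 0.09, adjusted p = 0.113 in EIC + S60 mice and LFC 0.31 ± 0.09, adjusted p = 0.0367 in EIC + S120. The call was lost without Control 652, Control 653, Control 654, or EIC + S120 mouse 80 or 81.

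Acadm, the medium-chain acyl-CoA dehydrogenase and a textbook PPAR-alpha target, had 1533, 876, 1018, 915 and 1222 CPM in EIC mice, 1012, 1175, 969, 1256 and 977 CPM in EIC + S60 mice, 1227, 972, 1151, 1218 and 1306 CPM in EIC + S120 mice and 1033, 1108, 1017, 1131 and 1329 CPM in Control mice. All groups overlapped, with the widest span in EIC, and the values were LFC -0.01 ± 0.13, adjusted p = 0.976 in EIC, LFC -0.06 ± 0.13, adjusted p = 0.893 in EIC + S60 mice and LFC 0.06 ± 0.13, adjusted p = 0.829 in EIC + S120 vs. Control. The very-long-chain and long-chain dehydrogenases Acadvl and Acadl had LFCs of 0.07 and 0.20 in EIC + S120 vs. Control. The trifunctional protein subunits Hadha and Hadhb, which carry out the hydratase, dehydrogenase and thiolase steps for long chains, were the closest to 0, with LFCs of 0.05 and 0.01 in EIC + S120 vs. Control and SEs of 0.05 and 0.07. Hadha also varied the least within groups of all 39 members, with a mean coefficient of variation of 5.04%. The short-chain dehydrogenase Acads, the hydroxyacyl-CoA dehydrogenase Hadh, Acaa2, Eci1 and Ech1 had LFCs from 0.07 to 0.22 in that comparison. None of these 10 enzymes was called in any group with all libraries, while Acads and Eci1 were called in EIC + S120 vs. Control without EIC + S120 mouse 77. At an unadjusted p under 0.05, edgeR counted 2, 1 and 4 of the 11 higher in EIC, EIC + S60 and EIC + S120 vs. Control, where 7.66%, 6.24% and 9.86% of all genes were. DESeq2 added Acads and Decr1 in EIC and Acadl in EIC + S120.

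Of the 3 genes that carry electrons from the dehydrogenases, only Etfb was called. Etfb, the beta subunit of electron transfer flavoprotein, had 145, 142, 166, 210.4 and 144 CPM in EIC mice, 149.9, 145, 158, 140.4 and 143 CPM in EIC + S60 mice, 139.8, 141, 155, 152 and 197 CPM in EIC + S120 mice and 118, 122, 103, 114 and 132 CPM in Control mice. Every mouse given the complexes was above the highest Control mouse. The values were LFC 0.46 ± 0.10, adjusted p = 0.02 in EIC, LFC 0.32 ± 0.10, adjusted p = 0.15 in EIC + S60 mice and LFC 0.42 ± 0.10, adjusted p = 0.0205 in EIC + S120 vs. Control. The EIC + S120 call was lost without Control 653, Control 654 or EIC + S120 mouse 81, whose 197 CPM stood far above the other 4. Its partner Etfa, with which it forms 1 protein, had LFCs of 0.06, 0.05 and 0.08, and the acceptor Etfdh had LFCs of -0.06, -0.08 and -0.04 in the same order. The Etfb count is uncertain because of the overlapping model on the same strand.

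In the peroxisomal pathway 1 of 6 members, Eci2, was called in each comparison with Control. Eci2, an enoyl-CoA isomerase of peroxisomes and mitochondria, had 126, 114, 99.5, 114 and 115 CPM in EIC mice, 102, 111, 111, 117 and 97.9 CPM in EIC + S60 mice, 114, 120.2, 122, 137 and 135 CPM in EIC + S120 mice and 86, 87.3, 76.3, 84.7 and 96.4 CPM in Control mice. All 15 mice given the complexes were above the highest Control mouse, and 4 of 5 EIC + S120 mice were above every EIC + S60 mouse. The values were LFC 0.40 ± 0.07, adjusted p = 0.0041 in EIC, LFC 0.32 ± 0.07, adjusted p = 0.0264 in EIC + S60 mice and LFC 0.54 ± 0.07, adjusted p = 8.56e-05 in EIC + S120. The EIC and EIC + S120 calls remained whichever library was left out, and the EIC + S60 call was lost in 6 of 20 such fits. Ehhadh, the bifunctional peroxisomal enzyme and a classical PPAR-alpha target, had 791, 684, 478, 491 and 747 CPM in EIC mice, 638, 659.6, 616, 728 and 506 CPM in EIC + S60 mice, 667, 647, 664, 833 and 769 CPM in EIC + S120 mice and 641, 508, 366, 526 and 647 CPM in Control mice. EIC + S120 mice did not overlap Control, with LFC 0.41 ± 0.16, adjusted p = 0.13, against LFC 0.25 ± 0.16, adjusted p = 0.451 in EIC mice and LFC 0.23 ± 0.16, adjusted p = 0.588 in EIC + S60, so that Ehhadh was not called. The gap was narrow, from 646.7 CPM in the highest Control mouse to 647.1 CPM in the lowest EIC + S120 mouse. Cat, which breaks down the hydrogen peroxide that peroxisomal oxidation makes, stood at 1112 ± 161 CPM in EIC, 1285 ± 61.1 CPM in EIC + S60, 1319 ± 169.7 CPM in EIC + S120 and 1035 ± 156 CPM in Control mice (SD, n = 5 each). Its LFC in EIC + S120 was 0.35 ± 0.11, adjusted p = 0.0705, and it was called without Control 651, EIC mouse 66 or EIC + S120 mouse 77. DESeq2 also called Cat in EIC + S120 vs. Control. EIC + S60 mice did not overlap Control for Cat, but the gap was narrow, from 1198.0 to 1198.6 CPM. Acox2, the branched-chain acyl-CoA oxidase, Hsd17b4 and the thiolase Acaa1a had LFCs of -0.06, 0.19 and 0.22 in EIC + S120 vs. Control.

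Acyl-CoA thioesterases release free fatty acid or acetate from CoA. All 3 on the list were called higher in EIC + S120 vs. Control, and none in EIC or EIC + S60 vs. Control. Acot1, the cytosolic long-chain enzyme, had 117, 102, 83.5, 91.1 and 123 CPM in EIC mice, 103, 103, 85.9, 85.2 and 68.7 CPM in EIC + S60 mice, 109, 143, 122, 185 and 160.2 CPM in EIC + S120 mice and 97.5, 82.2, 64.5, 64.5 and 91.8 CPM in Control mice. The EIC + S120 mice were all above every Control and every EIC + S60 mouse, with LFC 0.84 ± 0.15, adjusted p = 0.00267 vs. Control. In EIC and EIC + S60 vs. Control the values were LFC 0.37 ± 0.15, adjusted p = 0.239 and LFC 0.15 ± 0.15, adjusted p = 0.747. The call remained whichever library was left out.

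Acot2, the mitochondrial paralog, had 35.4, 36.6, 27.1, 38.1 and 35.7 CPM in EIC mice, 35.7, 31.4, 27.6, 30.4 and 29.8 CPM in EIC + S60 mice, 35.6, 44.7, 34.5, 48.9 and 34.9 CPM in EIC + S120 mice and 35.9, 24.3, 22.6, 29 and 32.6 CPM in Control mice. Among EIC + S120 mice, only 78 and 80 were above the highest Control mouse, and so were EIC mice 66 and 68. The call in EIC + S120 vs. Control (LFC 0.46 ± 0.13, adjusted p = 0.0368) was lost without EIC + S120 mouse 78 or 80, or without Control 652, Control 653 or Control 654. Acot12, an acetyl-CoA hydrolase, had 149, 142, 102, 112 and 131 CPM in EIC mice, 127, 133, 119.9, 130.2 and 118 CPM in EIC + S60 mice, 134, 148, 142, 167 and 153 CPM in EIC + S120 mice and 120.9, 109.9, 84.7, 109 and 141 CPM in Control mice. Control 653 was the lowest of all 20 mice, and 4 of 5 EIC + S120 mice were above every Control mouse. The test gave LFC 0.40 ± 0.11, adjusted p = 0.0355, which was lost in 7 of the 20 fits without 1 library. Reads of Acot1 and Acot2 that fall in shared sequence cannot be assigned from these tables.

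**Figure D3:**
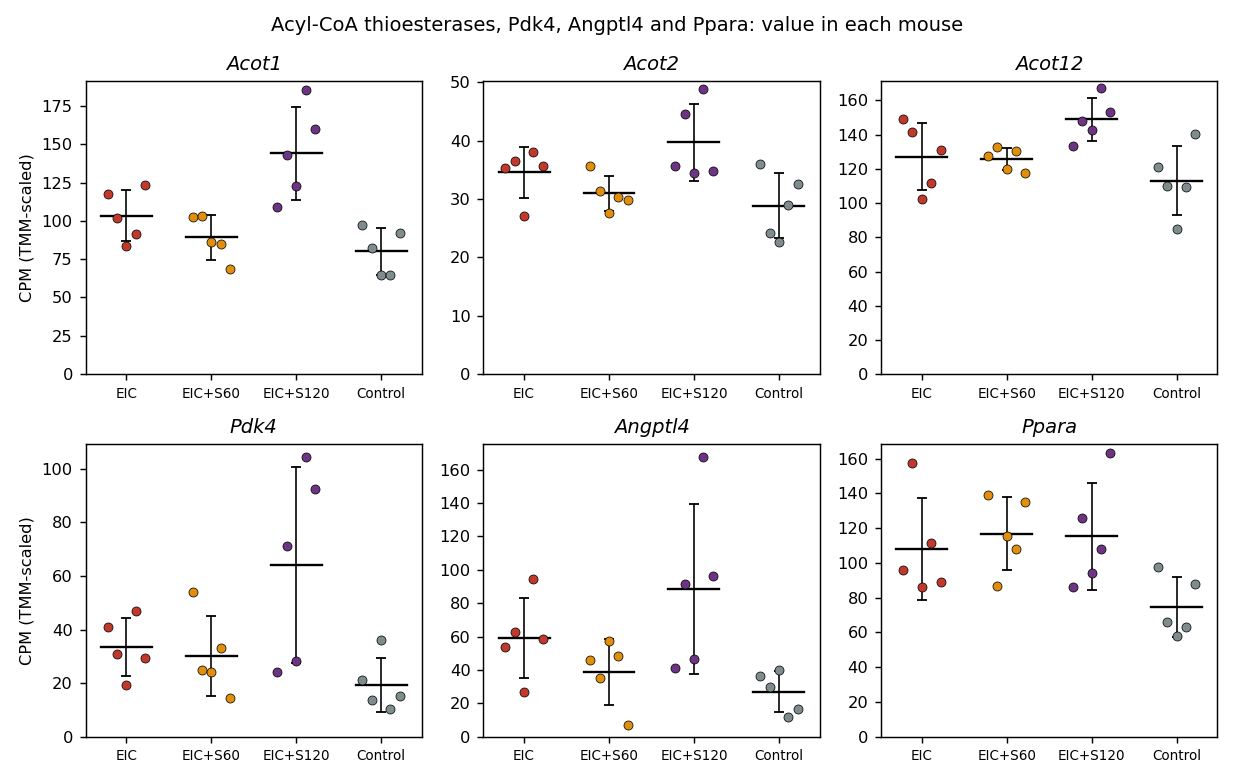
CPM of each mouse (points) for Acot1, Acot2, Acot12, Pdk4, Angptl4 and Ppara, with the group mean and SD (n = 5) as bars and every axis from 0. EIC + S120 mice spread over 24.3 to 105 CPM for Pdk4, with 3 mice at 71.2 CPM or above and 2 at 28.2 CPM or below.

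The receptor gene itself, Ppara (chr15:85734983-85802819, plus strand), had 95.9, 158, 86.4, 111 and 89.2 CPM in EIC mice, 139, 86.6, 116, 108 and 135 CPM in EIC + S60 mice, 85.9, 126, 93.9, 108 and 163 CPM in EIC + S120 mice and 97.5, 66, 58, 63.3 and 88.1 CPM in Control mice. The groups overlapped in every comparison, and 2 EIC, 4 EIC + S60 and 3 EIC + S120 mice were above the highest Control mouse. The values were LFC 0.53 ± 0.19, adjusted p = 0.178 in EIC, LFC 0.65 ± 0.19, adjusted p = 0.147 in EIC + S60 mice and LFC 0.63 ± 0.19, adjusted p = 0.0818 in EIC + S120 vs. Control, none past the threshold. DESeq2 called Ppara in EIC + S60 mice and EIC + S120 vs. Control, and edgeR called it in EIC + S120 without Control 651, EIC mouse 66 or EIC + S120 mouse 77. Ppargc1a, a coactivator of PPAR-alpha and of mitochondrial biogenesis, had 92.4, 89.9, 87.1, 72.9 and 85.3 CPM in EIC mice, 69.6, 76.7, 77.1, 96.6 and 91.8 CPM in EIC + S60 mice, 90.6, 90.8, 73.5, 78.4 and 65.3 CPM in EIC + S120 mice and 93.1, 96, 87.2, 88.8 and 93.3 CPM in Control mice. Against Control it had LFC -0.10 ± 0.09, adjusted p = 0.641 in EIC, LFC -0.15 ± 0.09, adjusted p = 0.53 in EIC + S60 mice and LFC -0.20 ± 0.09, adjusted p = 0.232 in EIC + S120, where Cd36, Etfdh and Acox2 were the other members below 0.

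Pdk4 and Angptl4, which rise in fasting in many tissues, had the largest LFCs of the 39 in EIC and in EIC + S120 vs. Control, though not in EIC + S60 vs. Control, and the largest spread, with mean coefficients of variation of 47.9% and 48.6% within groups. Pdk4, the kinase that shuts off pyruvate dehydrogenase, had 40.8, 30.7, 19.3, 47 and 29.2 CPM in EIC mice, 54, 24.8, 24.2, 33.2 and 14.4 CPM in EIC + S60 mice, 24.3, 71.2, 28.2, 105 and 92.5 CPM in EIC + S120 mice and 21.2, 13.6, 36.2, 10.5 and 15.2 CPM in Control mice. EIC + S120 mice 78, 80 and 81 were above every Control mouse and the other pair were not. That pair, at 24.3 and 28.2 CPM, lay below only 1 Control mouse, Control 653 at 36.2 CPM. The test gave LFC 1.73 ± 0.41, adjusted p = 0.0344 in EIC + S120 vs. Control, a call lost without any 1 of mice 78, 80 and 81 or of Control 651, 652, 654 and 655. In EIC and EIC + S60 vs. Control the values were LFC 0.79 ± 0.41, adjusted p = 0.408 and LFC 0.63 ± 0.41, adjusted p = 0.622. Without Control 653 edgeR gave Pdk4 LFC 2.06, adjusted p = 0.0195 in EIC + S120 vs. Control. In EIC and EIC + S60 that fit gave LFC 1.12, adjusted p = 0.235 and LFC 0.95, adjusted p = 0.515. Angptl4, a secreted inhibitor of lipoprotein lipase, had 53.9, 62.6, 26.7, 94.4 and 58.6 CPM in EIC mice, 46.3, 35.3, 57.5, 48.4 and 6.79 CPM in EIC + S60 mice, 41.1, 91.5, 46.5, 168 and 96.1 CPM in EIC + S120 mice and 36.7, 29.96, 40.1, 11.7 and 16.6 CPM in Control mice. EIC + S120 mice were all above every Control mouse. The values were LFC 1.11 ± 0.51, adjusted p = 0.28 in EIC, LFC 0.50 ± 0.51, adjusted p = 0.747 in EIC + S60 mice and LFC 1.69 ± 0.51, adjusted p = 0.0656 in EIC + S120. The EIC + S120 value passed the threshold without EIC + S60 mouse 75, at 6.79 CPM the lowest of all 20, or without EIC + S120 mouse 77. DESeq2, and edgeR without its robust option, also called Angptl4 in EIC + S120 vs. Control. Vnn1, a pantetheinase that recycles a CoA precursor, was not called in any comparison, with LFCs of 0.35, 0.13 and 0.40 in EIC, EIC + S60 and EIC + S120 vs. Control.

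The lipid droplet coat genes depended on Control 653. Plin2 had 39.2, 52, 35.9, 42.4 and 46.4 CPM in EIC mice, 50.5, 39.7, 44.7, 39.7 and 35.3 CPM in EIC + S60 mice, 35.4, 49.8, 45.8, 51.9 and 45.6 CPM in EIC + S120 mice and 28.4, 33.5, 70.3, 29.2 and 34.7 CPM in Control mice. Control 653 was the highest of all 20 mice and the other 4 Control mice were below every mouse given the complexes. With all libraries the values against Control were LFC 0.14 ± 0.18, adjusted p = 0.775 in EIC, LFC 0.10 ± 0.18, adjusted p = 0.883 in EIC + S60 mice and LFC 0.23 ± 0.18, adjusted p = 0.577 in EIC + S120. Without Control 653 they were LFC 0.46, adjusted p = 0.0431 in EIC, LFC 0.41, adjusted p = 0.125 in EIC + S60 mice and LFC 0.54, adjusted p = 0.00991 in EIC + S120. Plin5 had 5.5, 7.96, 5.74, 5.91 and 5.94 CPM in EIC mice, 7.01, 6.18, 6.05, 5.53 and 4.56 CPM in EIC + S60 mice, 5.39, 8.04, 7.64, 9.33 and 9.77 CPM in EIC + S120 mice and 4.26, 4.42, 7.72, 4.15 and 6.42 CPM in Control mice, and its LFC in EIC + S120 vs. Control was 0.59 ± 0.18, adjusted p = 0.0638 with all libraries and 0.75, adjusted p = 0.0137, without Control 653, and it also passed without EIC + S120 mouse 77. DESeq2 and limma-voom called Plin5 in EIC + S120 vs. Control with all libraries. Adipocytes express Plin2 and Plin5. The adipocyte markers Plin1 and Cfd were at 28.7 and 29.4 CPM in Control 653 and at most 1.62 and 4.85 CPM in the other 19 mice. The part of the adipocyte RNA in the Plin2 and Plin5 values was not tested beyond leaving that library out.

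**Figure D4:**
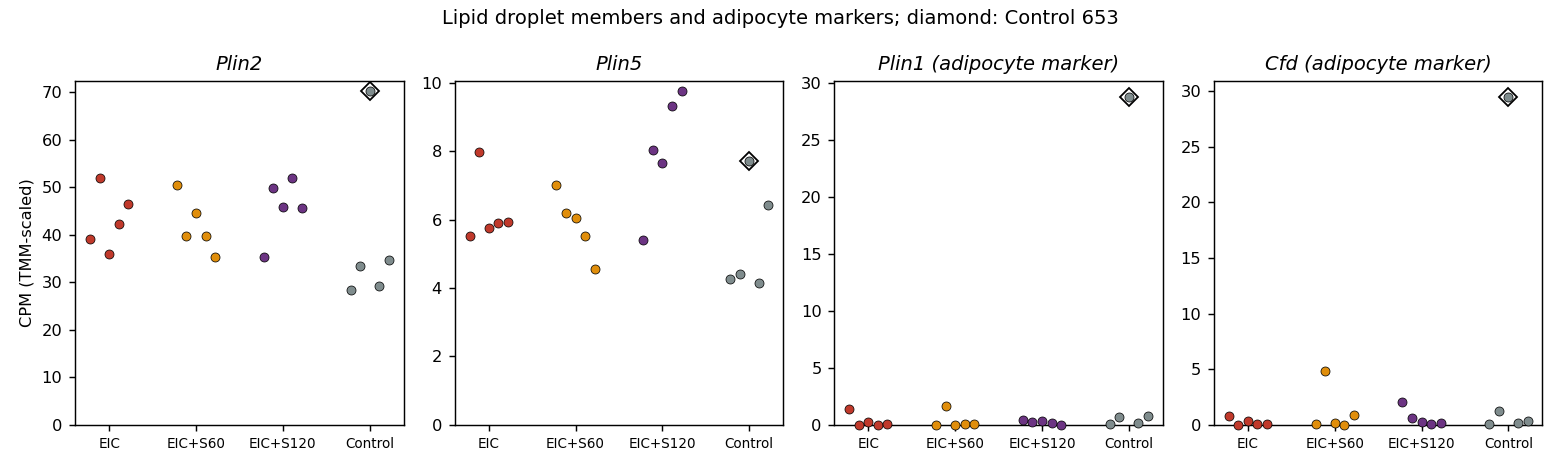
CPM of each mouse (points, axes from 0) for the lipid droplet members Plin2 and Plin5 and for the adipocyte markers Plin1 and Cfd, with Control 653 as a diamond. Control 653 is at 70.3 CPM for Plin2, against 28.4 to 34.7 CPM in the other 4 Control mice.

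Control 653 was also the lowest of the 20 mice for 16 of the 39 members, and Control 654 for 9. Leaving out Control 653 left 5 members called in EIC, 1 in EIC + S60 mice and 9 in EIC + S120 vs. Control, where over all genes the calls numbered 360, 133 and 640, against 416, 180 and 777 with all libraries. Of the calls with all libraries, 4 of 6, 1 of 3 and 7 of 12 remained, and Plin2 was new in EIC and EIC + S120 and Plin5 in EIC + S120. The calls that remained in EIC + S120 were Slc27a2, Cpt1a, Slc25a20, Cpt2, Eci2, Acot1 and Pdk4. The median LFC of the members without it was 0.17, 0.11 and 0.25 in EIC, EIC + S60 and EIC + S120 vs. Control.

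No member was called between the groups given the complexes. In EIC + S60 vs. EIC, edgeR called 0 of 39 members, with 0 higher and 1 lower at an unadjusted p under 0.05. Of all genes 0% were called, and 3.3% and 2.75% were higher and lower at that unadjusted p. The 1 was Fabp3, the heart and muscle type of fatty acid binding protein, at 81.3 ± 5.27 CPM in EIC + S60 mice and 92.5 ± 5.34 CPM in EIC mice (LFC -0.19 ± 0.08, adjusted p = 0.792). In EIC + S120 vs. EIC, edgeR called 0 members, with 6 higher and 1 lower at an unadjusted p under 0.05, where 0.0572% of all genes were called and 4.17% and 4.27% were higher and lower at that unadjusted p. In EIC + S120 vs. EIC + S60 it called 0, with 10 higher and 0 lower at an unadjusted p under 0.05, where 0.0643% of all genes were called and 4.03% and 4.05% were higher and lower at that unadjusted p. Limma-voom also called 0 in all 3, and DESeq2 called 0, 0 and 2, the 2 being Slc25a20 and Acot1. The median LFC of the members was -0.03, 0.08 and 0.05 in these comparisons, and 8, 31 and 34 of 39 LFCs were above 0, against 49.4%, 50.5% and 50.2% of all genes tested. The first pair shares the EIC libraries and the second the EIC + S120 libraries.

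Between the doses, 3 members did not overlap, Slc25a20, Acot1 and Acot12, all higher in EIC + S120, where 0.722% of all genes were higher without overlap. For Acot12 (LFC 0.25) the gap was narrow. Its lowest EIC + S120 value was 133.6 CPM and its highest EIC + S60 value 133.0 CPM. Slc25a20 was at 108 ± 11.7 CPM in EIC + S120 and 81.7 ± 8.82 CPM in EIC + S60 mice (SD, n = 5 each, LFC 0.41 ± 0.09, adjusted p = 0.116). Acot1 was at 144 ± 30.2 CPM in EIC + S120 and 89.1 ± 14.4 CPM in EIC + S60 mice (LFC 0.69 ± 0.15, adjusted p = 0.116). Both passed the threshold without EIC + S120 mouse 77, with adjusted p = 0.0357 and 0.0351, in a fit that called 54 of all genes against 9 with all libraries. Against EIC, the same genes in EIC + S120 gave LFC 0.26 ± 0.09, adjusted p = 0.422 and LFC 0.48 ± 0.15, adjusted p = 0.392, and in EIC + S60 LFC -0.15 ± 0.09, adjusted p = 0.845 and LFC -0.22 ± 0.15, adjusted p = 0.859. Cpt1a differed little across the groups given the complexes, with LFC 0.04 ± 0.10, adjusted p = 0.976 for EIC + S60 against EIC, LFC 0.08 ± 0.10, adjusted p = 0.868 for EIC + S120 against EIC and LFC 0.04 ± 0.10, adjusted p = 0.963 between the doses. Acsl1 had LFC 0.31 ± 0.10, adjusted p = 0.405 in EIC + S120 vs. EIC and LFC 0.36 ± 0.10, adjusted p = 0.238 in EIC + S120 vs. EIC + S60, and Pdk4 LFC 0.94 ± 0.41, adjusted p = 0.591 and LFC 1.10 ± 0.41, adjusted p = 0.523. None of these differences passed the test, so with 5 mice a group the members were not shown to change with sparsentan at either dose. Among clock genes, 1 was called higher and 1 lower in EIC + S120 vs. EIC + S60.

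**Figure D5:**
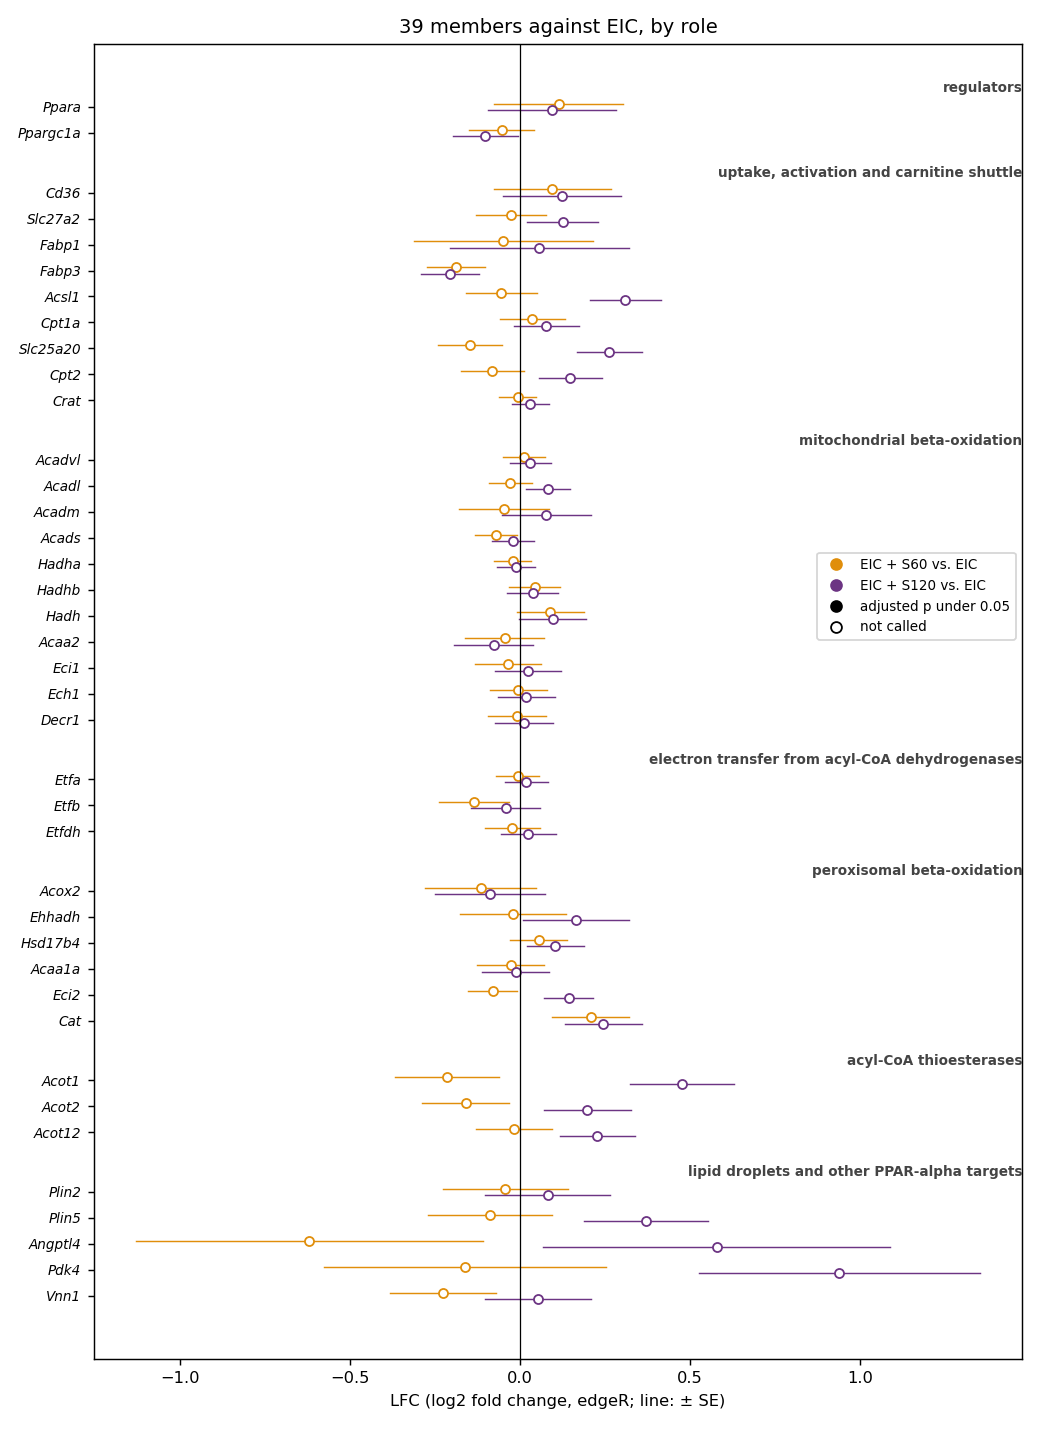
LFC (x axis, log2 scale) of the 39 members in EIC + S60 mice and EIC + S120 vs. EIC, grouped by role down the page, with lines for ± SE from limma-trend. All points are open, since no member passed the test. The spiral enzymes lie between -0.08 and 0.10, and the thioesterases lie left of 0 in EIC + S60 mice and right of 0 in EIC + S120.

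Single mice of a group differed across many members at once. As a description, the log2 CPM of each member was taken relative to its Control mean and averaged over the 39. This average was 0.04 to 0.34 in EIC, -0.003 to 0.27 in EIC + S60, 0.16 to 0.52 in EIC + S120 and -0.12 to 0.10 in Control mice. EIC + S120 mice 80 and 81 were the highest at 0.51 and 0.52, and were the highest of all 20 mice for 13 and 12 members. The lowest among mice given the complexes were EIC + S60 mouse 75 at -0.003 and EIC mouse 67 at 0.04, both inside the Control range. The sums of 10 macrophage markers were 111 to 276 CPM in EIC, with mouse 67 the highest, 92.9 to 163 CPM in EIC + S60, 101.5 to 145 CPM in EIC + S120 and 91.2 to 116 CPM in Control mice. In EIC + S60 the highest macrophage sum was that of mouse 72, not mouse 75. EIC mouse 67 and EIC + S60 mouse 75 were the lowest of their groups for 10 summed glucocorticoid-induced genes, at 753 and 545 CPM. That list holds the member Pdk4. The part of macrophages or of a glucocorticoid response in the members' values was not tested.

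Other genes of the pathway were read from 4 lists of 91 genes, 86 of them tested. The counts higher and lower were 10 and 0 for EIC, 6 and 0 for EIC + S60, and 20 and 2 for EIC + S120 vs. Control, and none was called between groups given the complexes. Of all genes, 2.97%, 1.29% and 5.55% were called in EIC, EIC + S60 and EIC + S120 vs. Control. At an unadjusted p under 0.05, edgeR counted 3 higher and 1 lower for EIC + S60 against EIC, 16 and 0 for EIC + S120 against EIC, and 14 and 1 for EIC + S120 against EIC + S60. Of all genes, 3.3% and 2.75%, 4.17% and 4.27%, and 4.03% and 4.05% were higher and lower at that p. Most of the calls lay among 35 further oxidation enzymes, carriers and peroxisomal proteins, with 8, 4 and 16 higher in EIC, EIC + S60 and EIC + S120 vs. Control and 0, 0 and 1 lower. Acaa1b, a peroxisomal thiolase close in sequence to Acaa1a, averaged 388 ± 56.4 CPM in EIC, 378 ± 23.9 CPM in EIC + S60, 481 ± 73.2 CPM in EIC + S120 and 229 ± 26.7 CPM in Control mice (SD, n = 5 each). No mouse given the complexes overlapped Control, and the LFCs, in the order EIC, EIC + S60 and EIC + S120 vs. Control, were 0.76, 0.73 and 1.07 (adjusted p = 0.000526, 0.00111 and 4.86e-06). Slc25a42, the mitochondrial carrier of CoA, followed with LFCs of 0.67, 0.64 and 0.85 (adjusted p = 0.00186, 0.0032 and 6.26e-05), and Abcd3, which imports acyl-CoA into peroxisomes, with 0.49, 0.49 and 0.72 (adjusted p = 0.0173, 0.023 and 0.000291). Nudt19, a CoA-degrading enzyme of kidney peroxisomes, had LFCs of 0.64, 0.45 and 0.86 (adjusted p = 0.0237, 0.176 and 0.00153), and the thioesterase Acot3 0.54, 0.72 and 0.87 (adjusted p = 0.0306, 0.00649 and 0.000503). Pex11a, a factor of peroxisome proliferation, had LFCs of 0.40, 0.24 and 0.68 (adjusted p = 0.0357, 0.315 and 0.000279). The 1 lower was the acyl-CoA synthetase Acsl5, at 54.5 ± 5.18 CPM in EIC + S120 and 75.3 ± 18.1 CPM in Control mice (LFC -0.47 ± 0.12, adjusted p = 0.033). Control 653 was at 106 CPM and the other Control mice at 61.5 to 75.1 CPM, against 49.8 to 62.5 CPM in EIC + S120 mice. The Acsl5 call was not tested without Control 653.

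Among 29 further genes known as PPAR-alpha targets, 3.45%, 3.45% and 10.3% were called in EIC, EIC + S60 and EIC + S120 vs. Control. Of all genes 2.97%, 1.29% and 5.55% were called there, so that in EIC the list was near the share of all genes. In counts, 1, 1 and 2 were higher and 0, 0 and 1 lower. The 1 in EIC and in EIC + S60 was Per3, which is also a clock gene, at LFC 0.63 and 0.64 (adjusted p = 0.0201 and 0.0259). In EIC + S120 they were G0s2, an inhibitor of lipolysis (LFC 0.74 ± 0.18, adjusted p = 0.0242), Cyp4a31, of the fatty acid omega-hydroxylases (LFC 0.51 ± 0.13, adjusted p = 0.0242), and Plin3, which was lower (LFC -0.20 ± 0.06, adjusted p = 0.0461). The omega-hydroxylase Cyp4a10, a classical target in liver, was at 877 ± 193 CPM in EIC + S120 and 718 ± 242 CPM in Control mice (LFC 0.29 ± 0.21, adjusted p = 0.477). Of 14 nuclear receptors and coactivators, 1, 1 and 2 were higher and 0 lower. Creb3l3, a membrane-bound transcription factor that acts with PPAR-alpha in mouse liver, was called in all 3 comparisons, at 1.02 ± 0.379 CPM in EIC, 1.05 ± 0.554 CPM in EIC + S60, 1.68 ± 0.638 CPM in EIC + S120 and 0.257 ± 0.121 CPM in Control mice, a low level in each (LFC 2.08, 2.09 and 2.80, adjusted p = 0.02, 0.0277 and 0.000842). Lpin1, a phosphatidate phosphatase and coactivator, was called in EIC + S120 vs. Control (LFC 0.70 ± 0.18, adjusted p = 0.0411). None of 8 ketone body and acetyl-CoA genes was called in any comparison by edgeR, with 0, 0 and 2 higher at an unadjusted p under 0.05 in EIC, EIC + S60 and EIC + S120 vs. Control and none lower. Cyp4a10 was named after its values were seen.

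Other gene groups moved with the same comparisons. Beside their counts, 2.97%, 1.29% and 5.55% of all genes were called in EIC, EIC + S60 and EIC + S120 vs. Control. At an unadjusted p under 0.05 by edgeR, 7.66%, 6.24% and 9.86% of all genes were higher. Of 15 clock genes, 8 were higher and 3 lower in EIC mice, 7 and 3 in EIC + S60 mice, and 6 and 2 in EIC + S120 mice vs. Control. Their summed CPM was 1306 to 1461 in EIC, 1289 to 1424 in EIC + S60, 1192 to 1288 in EIC + S120 and 964 to 1124 in Control mice, with no overlap of Control. Between the groups given the complexes, 1 clock gene was lower in EIC + S120 vs. EIC. In EIC + S120 vs. EIC + S60, 1 was higher and 1 lower, and in EIC + S60 vs. EIC none was called. Cry1 was at 17.5 to 23.9, 6.62 to 12.3 and 9.1 to 13.5 CPM in EIC + S120, EIC + S60 and EIC mice. Dbp was at 133 to 194, 237 to 299 and 232 to 293 CPM in the same order. Of 10 genes induced by glucocorticoids, a list that holds Pdk4, none was lower vs. Control. In EIC, EIC + S60 and EIC + S120 vs. Control, 2, 2 and 5 were higher. Of the 10, 1, Fkbp5, was higher in EIC + S120 vs. EIC + S60. Their summed CPM was 753 to 1371 in EIC, 545 to 1083 in EIC + S60, 966 to 2025 in EIC + S120 and 538 to 863 in Control mice, the highest in EIC + S120 mouse 80, which was also the highest for Pdk4 and Angptl4. Of 10 macrophage markers, 5 were higher in EIC vs. Control and none in the sparsentan groups. Proximal tubule markers were called only in EIC + S120 vs. Control, with 2 of 14 higher (Miox and Slc13a3). Their median LFC was 0.11, 0.19 and 0.14 in EIC, EIC + S60 and EIC + S120 vs. Control, beside 0.19, 0.14 and 0.23 for the members, with 10, 14 and 12 of the 14 above 0 and 0, 3 and 1 higher without overlap. No red blood cell marker was called by edgeR, but all 6 had an LFC above 0 in each of these comparisons, with medians of 0.90, 0.65 and 0.43 and with 5, 3 and 0 higher at an unadjusted p under 0.05. Of 13 tested markers of the thick ascending limb, distal tubule and collecting duct none was called, with 7, 3 and 2 LFCs above 0, medians of 0.02, -0.23 and -0.22, and 0, 2 and 3 lower at that unadjusted p. None of 6 podocyte markers was called, with medians of -0.03, -0.08 and -0.16 and 1 higher in EIC and 1 lower in EIC + S120 at that unadjusted p. Only 3 of 8 skeletal muscle and 2 of 8 adrenal markers were abundant enough to test, and none of these was called, with 1 muscle marker higher in EIC vs. Control at that unadjusted p. The part of clock phase, glucocorticoid response, red cells or tubule content in the members' values was not tested. The adipocyte markers gave 1 call, Ucp1, lower in EIC + S120 vs. Control, where the Control level rests on the 93.1 CPM of Control 653.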

How the data were processed

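Kidney RNA of 20 mice was selected by poly(A) and sequenced. The authors used Trimmomatic 0.36 for trimming, STAR 2.5.2b for alignment (GRCm38) and featureCounts (Subread 1.5.2) for counting, and deposited raw gene counts. Not given in the sources used here were the annotation and the strand setting. Members overlapping a gene on the other strand, such as Acadvl, Slc27a2 and Acsl1, carry that uncertainty.

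Groups came from the labels. Genes reaching 10 counts in 5 or more of 20 libraries were tested two-sided by edgeR 4.0.16 (TMM, robust quasi-likelihood, 1 coefficient per group) in R 4.3.3, with Benjamini-Hochberg adjustment and calls at an adjusted p under 0.05. SEs came from limma 3.58.1 fitted to log2 CPM (prior count 2). RPKM and gene coordinates used GENCODE vM21, and promoters came from RefSeq. The alternatives were DESeq2 1.42.0, limma-voom, other scalings and filters, the 10 libraries compared, and leaving out libraries. The steps were tested on simulated data.

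The members and lists were chosen with earlier results of these data known. Members called in any comparison, and Ppara, Ppargc1a, Pdk4, Angptl4, Cpt1a, Acadm and Ehhadh, are given in full, and up to 4 called genes per companion list and comparison by p. P-values set each group difference against the spread between mice, counting error included. The paper reports no control for cages or for variation in treatment. A difference of that kind between groups cannot be told apart from the group itself.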

Additional observations from a re-analysis of the deposited data

Results flagged for a closer look

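In 9 of 156 sets of 5 mice (39 members in 4 groups), 1 mouse lay far from the other 4 by Dixon's criterion, which chance meets in about 1 of 20 sets. Plin2 was at 70.3 CPM in Control 653, against 28.4 to 34.7 CPM in the other Control mice. Fabp1 was at 8.71 CPM in EIC mouse 68, against 3.75 to 4.57 CPM in the other EIC mice. EIC mouse 66 was the highest of its group for Hadh at 636 CPM (others 511 to 543 CPM), Hsd17b4 at 394 CPM (others 308 to 331 CPM) and Plin5 at 7.96 CPM (others 5.50 to 5.94 CPM). EIC mouse 67 was low for Acot2 at 27.1 CPM (others 35.4 to 38.1 CPM). In EIC + S60, Slc25a20 was at 66.7 CPM in mouse 75 (others 82.4 to 88.3 CPM) and Hsd17b4 at 315 CPM in mouse 72 (others 355 to 365 CPM). Etfb was at 197 CPM in EIC + S120 mouse 81, against 139.8 to 155 CPM in the others.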

How the results depend on the processing

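No called member changed sign under any alternative run. DESeq2 called 9 members in EIC vs. Control, adding Acads, Crat and Decr1. It called 7 in EIC + S60 vs. Control (Cpt2, Crat, Ppara and Slc27a2 were added) and 2 in EIC + S120 vs. EIC + S60. A fit of only the 10 libraries compared called 3 in EIC vs. Control and 7 in EIC + S120 vs. Control, and leaving out both deep Control libraries, 651 and 652, called 2 and 7. The fits without 1 library called 3 to 7 members in EIC vs. Control, lowest without Control 654, where 245 of all genes were called against 416. They called 1 to 3 in EIC + S60 vs. Control, with 1 without Control 652, 653 or 654 or EIC + S60 mouse 72, 73 or 74, while the count over all genes was 103 to 224 across all 20 such fits. In EIC + S120 vs. Control they called 6 to 20, with 6 without Control 654, 7 without Control 652 or EIC + S120 mouse 80, and 20 without EIC + S120 mouse 77. Over all genes these fits called 551, 617, 510 and 1172, against 777, so that here the members' counts moved with those of all genes. That did not hold in every fit. Without Control 651, 246 of all genes were called in EIC vs. Control against 416, while the members called stayed at 6. In EIC + S120 vs. EIC + S60 the fits without 1 library called 0 to 2 members. The 2 came without EIC + S120 mouse 77, where 54 of all genes were called against 9. In both comparisons with EIC these fits called 0 members. RLE and upper-quartile scaling, limma-voom, the fit without the robust option, no filter, and a filter of 10 counts in all 20 libraries kept each count within 1.5 times. DESeq2, limma-voom, RLE and upper-quartile scaling each kept all 12 calls in EIC + S120 vs. Control. There DESeq2 called 17 members, adding Acadl, Angptl4, Cat, Plin5 and Ppara, and it called 1122 of all genes against 777 by edgeR. Limma-voom called 13, adding Plin5, and edgeR without the robust option called 13, adding Angptl4. Over all genes, DESeq2 called 704, 359, 5, 65 and 81 in EIC vs. Control, EIC + S60 vs. Control, EIC + S60 vs. EIC, EIC + S120 vs. EIC and EIC + S120 vs. EIC + S60, against 416, 180, 0, 8 and 9 by edgeR. In EIC vs. Control edgeR called 146 with the 10 libraries compared and 124 without both deep Controls, and in EIC + S60 vs. Control 119 without these. In EIC + S120 vs. EIC it called 5 with RLE or no filter and 2 with the 10 libraries compared, and limma-voom 4, and in EIC + S60 vs. EIC it called 1 with these 10 or without the robust option. No paired analysis was possible because the mouse numbers differ between all groups. Depth limits Fabp1 and Plin5 most, with counts down to 52 and 61. Each call with an LFC under 0.4 was lost without at least 1 of the Control mice.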
